A study of Homo sapiens with 6 samples.

Results

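SNAI1, SNAI2, ZEB1, ZEB2, TWIST1, TWIST2, VIM, KRT8, KRT18 and EPCAM were measured in A673 cells made to express LOX-PP, the propeptide of lysyl oxidase, and in control cells. These 10 genes were taken as regulators and markers of the mesenchymal and epithelial states, and every probe whose transcript accession belongs to one of them was kept separately. The 10 genes were among 20499 named on the arrays, and had 17 of the 50599 gene probes. A673 is a human cell line derived from Ewing sarcoma, a tumour of bone and soft tissue driven by a fusion of EWSR1 with an ETS gene, usually FLI1. The 3 LOX-PP samples were A673/TR/LOX-PP cells, which carried a tetracycline repressor and a lentiviral LOX-PP cDNA and were treated with doxycycline for 72 hours. The 3 control samples were A673/TR/empty cells, which carried the same repressor and an empty lentiviral vector. The labels give 1 uM doxycycline in the protocol of all 6 samples but name the drug in the source of the LOX-PP samples alone, so whether the control cells received it is not settled. The study kept zeocin-resistant stable clones with the strongest induction, so the construct, the clone and the drug cannot be told apart in this comparison. Each group came from 3 independent experiments, hybridised to 1-colour Agilent arrays.

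Epithelial cells hold to their neighbours through E-cadherin (CDH1) and desmosomes and carry keratin filaments, whereas mesenchymal cells use N-cadherin (CDH2), vimentin filaments and a fibrillar collagen matrix. The SNAI and ZEB zinc finger proteins bind E-box sequences in the promoters of epithelial genes, above all CDH1, and repress them, and the TWIST proteins are basic helix-loop-helix factors that act in the same programme. Ewing sarcoma cells have features of both states, with high vimentin and with keratins in some tumours.

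ZEB1 held the single call among these genes and its paralogue ZEB2 held none, so the start regions of both are shown, together with the E-box CAGGTG that SNAI and ZEB proteins recognise. The sequences are those of RefSeq on GRCh38.p14 and cover the 250 bases before a transcription start, 5′ to 3′ on the gene's strand. Capitals mark CAGGTG or its reverse complement CACCTG. The search covered both strands, and the letters on one strand are the same site as their complement on the other. The table held windows for 5 of the 10 genes and 7 windows for ZEB1, of which 2 contained the motif. Both are printed, with the ZEB2 window, which held none. The motif stood in 17.5% of all 35116 windows listed there. The first ZEB1 window, chr10:31318167-31318416 on the plus strand, had 1 match, the second, chr10:31318966-31319215 on the plus strand, had 2, and the ZEB2 window is chr2:144520120-144520369 on the minus strand.
ZEB1, first window: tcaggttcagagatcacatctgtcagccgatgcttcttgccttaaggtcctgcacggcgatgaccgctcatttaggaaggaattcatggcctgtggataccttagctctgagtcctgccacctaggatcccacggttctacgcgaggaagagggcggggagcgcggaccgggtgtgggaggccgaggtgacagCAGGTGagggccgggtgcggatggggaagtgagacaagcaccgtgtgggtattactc
ZEB1, second window: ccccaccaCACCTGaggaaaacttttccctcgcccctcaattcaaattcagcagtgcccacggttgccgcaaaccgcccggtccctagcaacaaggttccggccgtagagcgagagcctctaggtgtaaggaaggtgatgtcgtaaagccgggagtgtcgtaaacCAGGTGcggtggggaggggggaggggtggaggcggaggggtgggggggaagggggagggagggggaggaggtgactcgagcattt
ZEB2: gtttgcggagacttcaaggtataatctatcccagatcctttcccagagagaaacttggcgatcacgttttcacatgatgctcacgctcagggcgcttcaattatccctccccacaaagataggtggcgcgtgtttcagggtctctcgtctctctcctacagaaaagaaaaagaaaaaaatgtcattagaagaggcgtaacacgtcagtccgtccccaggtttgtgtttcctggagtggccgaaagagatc

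All values are log2 of the processed signal, the scanner brightness after background subtraction, minus the 75th percentile of the same array. Differences are LOX-PP minus control and are given relative to the median difference of all tested probes, which was 0.13 with this scaling and -0.03 with quantile normalization. A probe was tested with limma if it was well above background, by the scanner's own call, on at least 3 of the 6 arrays. The p-values come from the scaled values before the median was taken off and are adjusted over all 32609 tested probes by the Benjamini-Hochberg method. Between 56.9% and 74.8% of gene spots were well above background on an array, and none was saturated. The 75th percentile lay between 12.60 and 12.90 on the control arrays, and at 11.48, 12.61 and 11.70 on the LOX-PP arrays, so LOX-PP replicates 1 and 3 were the dimmest arrays. LOX-PP replicate 1 was also the single array on a second slide. The correlation of 2 arrays was 0.978 to 0.994 within control, 0.953 to 0.979 within LOX-PP and 0.934 to 0.964 between the groups. LOX-PP replicates 2 and 3 correlated more with control replicate 3 (0.963 and 0.964) than with LOX-PP replicate 1 (0.953 and 0.956), which thus stood apart, and values without it are given as those within the first slide. All 10 Ewing sarcoma markers were well above background on all 6 arrays, and none passed the threshold with the 75th percentile scaling. At an unadjusted limma p under 0.05 there were 2, against 21.3% of all tested probes, and the methods' t-test called 0. With quantile normalization NKX2-2 passed (relative difference 1.11, limma adjusted p = 0.0495, against 0.078 with the 75th percentile). The LOX probe A_23_P122216, the check of the labels, was not higher in the LOX-PP cells (0.13 ± 0.22 in control and -0.70 ± 0.58 in LOX-PP, SD, n = 3 each; relative difference -0.95, limma adjusted p = 0.216). The LOX-PP cDNA ends within the LOX coding sequence, and the position of the probe on the transcript is not given in the sources used here, so this value does not check the induction.

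Of the 17 probes, 14 from 9 genes were tested, all of them well above background on all 6 arrays. The tested set leaves out both TWIST2 probes and 1 KRT8 probe. One probe, of ZEB1, passed an adjusted p of 0.05. That is 1 of 14, against 5.67% of all tested probes (3.31% higher and 2.36% lower in LOX-PP). An unadjusted limma p under 0.05 was found for 3 of the 14, against 21.3% of all tested probes. LOX-PP values lay above control without overlap for 3 of the 14 and below without overlap for 1, where the shares among all tested probes were 16.1% and 13.4%. The median relative difference of the 14 was 0.07 and their range -0.78 to 1.24, and the middle of all tested probes ran from -0.37 to 0.39 (quartiles). For 11 of the 14 the 95% interval of the relative difference contained 0. The samples are bulk RNA, in which fewer cells of a type and less RNA per cell cannot be told apart. The intervals reached 0.47 to 1.15 to either side, which is the precision that 3 arrays a group gave.

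**Figure D1:**
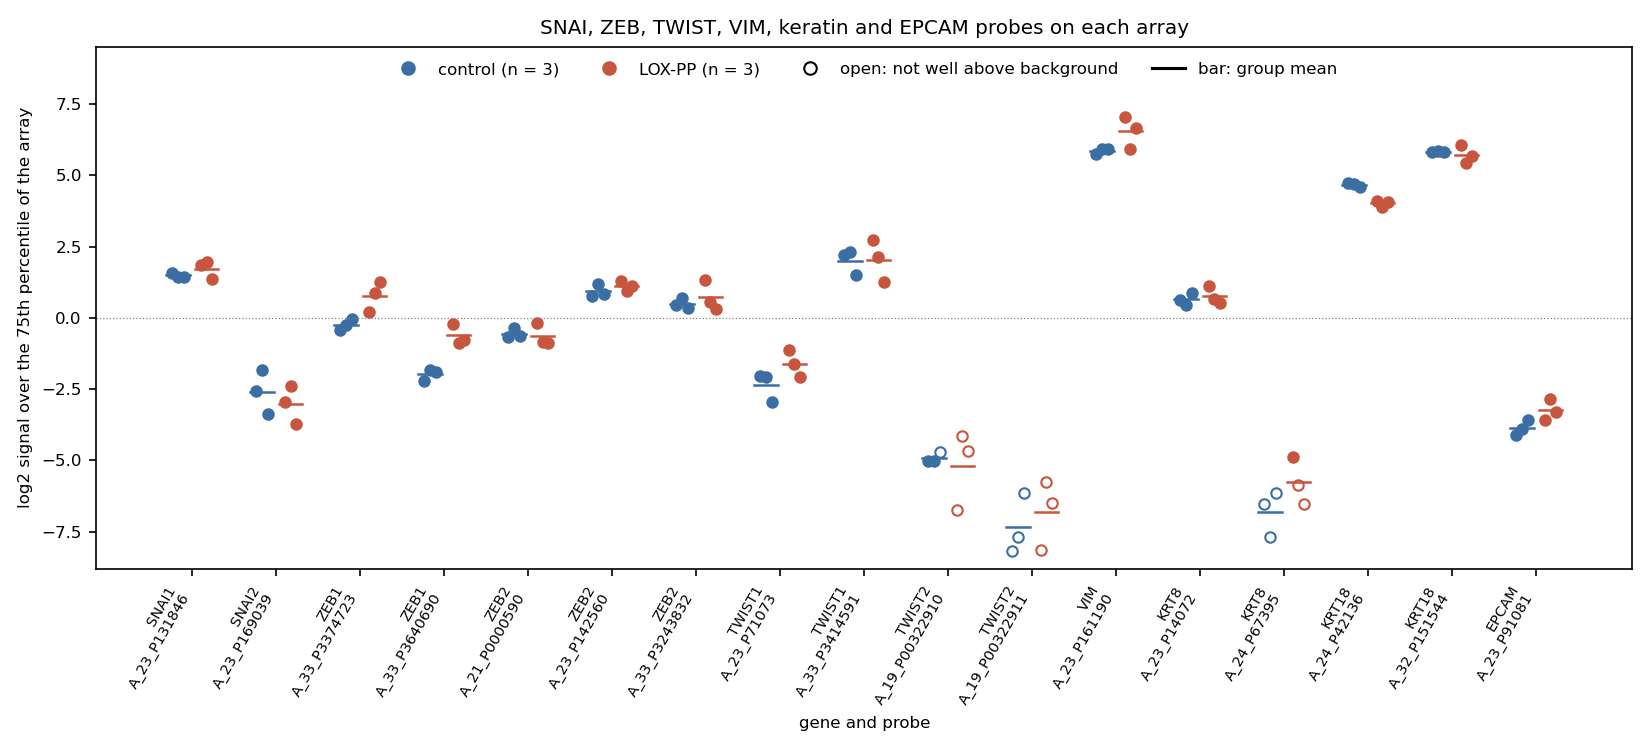
Log2 signal over the 75th percentile of the array (y axis) for the 17 probes (x axis), with 1 point per array, control (n = 3) in blue and LOX-PP (n = 3) in red, bars at the group means and open points where the probe was not well above background. Open points are confined to both TWIST2 probes and the second KRT8 probe, and among the tested probes the groups separate for both ZEB1 probes, 1 KRT18 probe and, narrowly, VIM.

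ZEB1 (chromosome 10) was higher in the LOX-PP cells with both of its probes, and the increase passed the test with 1 of them. ZEB1 encodes a transcriptional repressor of epithelial genes. Probe A_33_P3640690 read -2.23, -1.83 and -1.90 in control replicates 1 to 3 and -0.21, -0.89 and -0.77 in LOX-PP replicates 1 to 3. Every LOX-PP array lay above every control array by a margin wider than the spread within either group. The relative difference was 1.24 (SE 0.26, 95% interval 0.61 to 1.86), a 2.36-fold higher signal, with a limma adjusted p of 0.033. Probe A_33_P3374723, matched to the same transcript accession, read -0.44, -0.26 and -0.042 in control and 0.19, 0.85 and 1.24 in LOX-PP. Again no array overlapped, although LOX-PP replicate 1 lay close to the control arrays, and this array was the highest of its group with the other probe. The relative difference was 0.88 (SE 0.31, 95% interval 0.14 to 1.62; limma adjusted p = 0.122). The call of A_33_P3640690 was lost when any array other than LOX-PP replicate 1 was left out (adjusted p 0.0604 to 0.177), with no filter on dim probes (0.121) and with the methods' t-test (0.092). Within the first slide, without LOX-PP replicate 1, both probes passed, with relative differences of 1.00 and 1.13 and limma adjusted p of 0.0385 and 0.0363.

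Both probes of ZEB1-AS1, a noncoding transcript on the opposite strand that starts beside ZEB1, also had higher means in LOX-PP, a gene looked up after the ZEB1 values were seen. Probe A_19_P00811048 read -4.21, -4.22 and -4.09 in control and -2.62, -2.92 and -1.93 in LOX-PP (relative difference 1.56, SE 0.29, limma adjusted p = 0.0237, and 0.119 with quantile normalization). The other, A_33_P3301782, had a relative difference of 1.22 and did not pass (adjusted p = 0.0759). Each was well above background on 2 control arrays and all 3 LOX-PP arrays.

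ZEB2, the paralogue of ZEB1 on chromosome 2, gave no call with any of its 3 probes. Probe A_23_P142560 read 0.77, 1.19 and 0.84 in control and 1.28, 0.93 and 1.10 in LOX-PP, and A_33_P3243832 read 0.44, 0.71 and 0.33 against 1.33, 0.57 and 0.30. The groups overlapped in both, and the high value of A_33_P3243832 came from LOX-PP replicate 1 alone. Their relative differences were 0.047 (95% interval -0.49 to 0.58) and 0.11 (-0.63 to 0.85), and within the first slide they were -0.078 and -0.22. The remaining ZEB2 probe, A_21_P0000590, is designed to a noncoding ZEB2 transcript and also overlapped (-0.69, -0.36 and -0.65 against -0.20, -0.84 and -0.87; relative difference -0.19, adjusted p = 0.912).

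The difference between the 2 ZEB genes was then taken within each array, which removes the array scaling. With ZEB1 probe A_33_P3640690, ZEB1 minus ZEB2 was higher in LOX-PP by 1.43, 1.19 and 1.13 against the 3 ZEB2 probes, without overlap between groups (exact permutation p = 0.10 for each, two-sided, the smallest that 3 against 3 arrays allow). Against ZEB2 probe A_23_P142560, for example, it was -3.00, -3.01 and -2.74 in control and -1.49, -1.82 and -1.87 in LOX-PP. With ZEB1 probe A_33_P3374723 the same quantity differed by 1.08, 0.84 and 0.77 and the groups overlapped through LOX-PP replicate 1 (exact permutation p = 0.2, 0.2 and 0.4). These were 6 of 11 within-array pairs, chosen after the values were seen, and the Benjamini-Hochberg adjusted exact permutation p over the 11 pairs ran from 0.157 to 0.4.

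**Figure D2:**
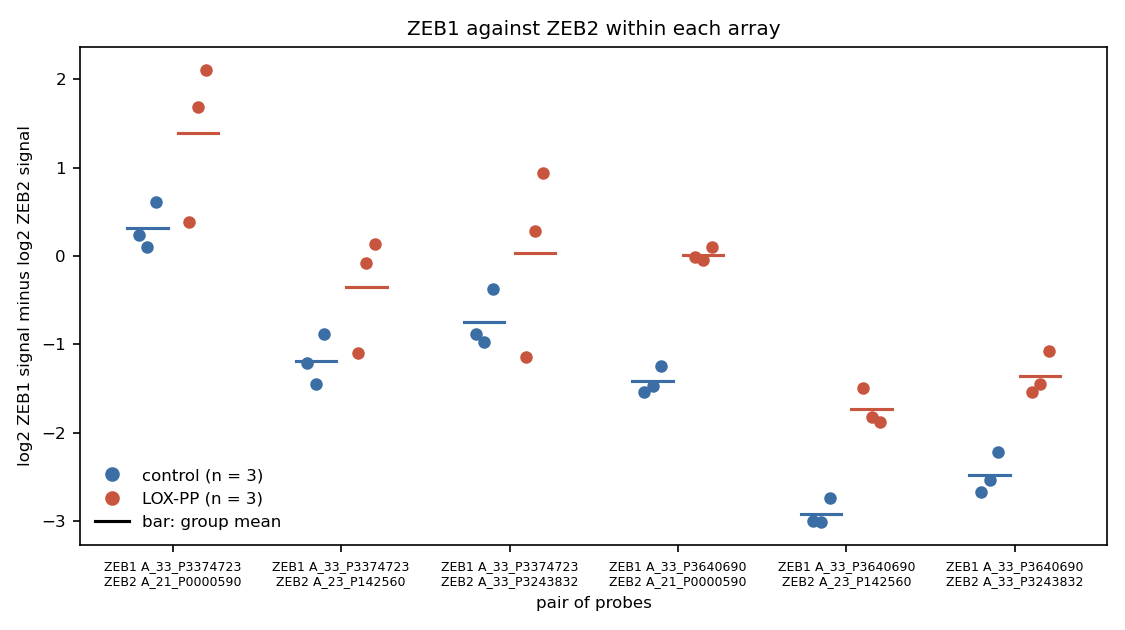
Log2 signal of a ZEB1 probe minus that of a ZEB2 probe on the same array (y axis) for the 6 pairs of probes (x axis), control (n = 3) in blue and LOX-PP (n = 3) in red, with bars at the group means. The LOX-PP points lie above all control points in the 3 pairs with A_33_P3640690, and 1 LOX-PP array lies among the control arrays in the 3 pairs with A_33_P3374723.

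SNAI1 (chromosome 20), whose product represses CDH1, read 1.58, 1.45 and 1.44 in control and 1.85, 1.95 and 1.36 in LOX-PP. LOX-PP replicates 1 and 2 were above all control arrays and replicate 3 below them, and the relative difference was 0.10 (95% interval -0.46 to 0.66; limma adjusted p = 0.629). SNAI2 (chromosome 8), the relative of SNAI1 expressed in neural crest and mesoderm, varied widely within groups, from -3.38 to -1.83 in control and from -3.74 to -2.41 in LOX-PP. Its relative difference of -0.57 had a 95% interval of -1.72 to 0.58 (adjusted p = 0.65), the widest of the 14.

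TWIST1 (chromosome 7), a regulator of mesoderm and neural crest, was measured by 2 probes, and neither was called. Probe A_23_P71073 read -2.05, -2.09 and -2.96 in control and -1.12, -1.64 and -2.09 in LOX-PP, a relative difference of 0.62 (95% interval -0.23 to 1.48; adjusted p = 0.286). Probe A_33_P3414591 read 2.21, 2.29 and 1.49 against 2.72, 2.14 and 1.27, a relative difference of -0.082 (-1.07 to 0.91; adjusted p = 0.966) that became 0.19 with quantile normalization. The groups overlapped with both probes. TWIST2, the paralogue of TWIST1 on chromosome 2, was at the edge of detection. Probe A_19_P00322910 was well above background on 2 control arrays and on no LOX-PP array, and A_19_P00322911 on no array, so neither was tested and no fold is given.

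VIM (chromosome 10) encodes the intermediate filament protein of mesenchymal cells. It read 5.74, 5.91 and 5.91 in control and 7.05, 5.94 and 6.66 in LOX-PP. The groups did not overlap, but LOX-PP replicate 2 exceeded the highest control array only slightly, and the LOX-PP spread was the wider. The relative difference was 0.57 (SE 0.31, 95% interval -0.17 to 1.32), with a limma adjusted p of 0.258. Before scaling, the processed signal of VIM was 407772, 375541 and 373563 in control and 376636, 383335 and 337581 in LOX-PP, so the groups overlapped before scaling. The relative difference was 0.18 with quantile normalization (adjusted p = 0.664) and 0.29 within the first slide (adjusted p = 0.336).

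KRT18 and KRT8, neighbouring genes on chromosome 12, encode the keratin pair of simple epithelia. KRT18 probe A_24_P42136 read 4.71, 4.68 and 4.60 in control and 4.09, 3.89 and 4.05 in LOX-PP. All LOX-PP arrays lay below all control arrays, with a small spread in both groups. The relative difference was -0.78 (SE 0.20, 95% interval -1.25 to -0.32), with a limma adjusted p of 0.113, which became 0.0479 with the methods' t-test and ran from 0.0479 to 0.405 over all alternatives. The second KRT18 probe, A_32_P151544, read 5.81, 5.85 and 5.83 against 6.05, 5.45 and 5.68. Here LOX-PP replicate 1 was the highest of all arrays, and the relative difference was -0.23 (95% interval -0.78 to 0.32; adjusted p = 0.831), or -0.43 within the first slide. KRT8 probe A_23_P14072 read 0.62, 0.45 and 0.88 against 1.12, 0.67 and 0.53, so the groups overlapped, and its adjusted p was 0.815 (95% interval -0.59 to 0.60). The other KRT8 probe, A_24_P67395, was well above background on LOX-PP replicate 1 alone and was not tested.

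Taken within arrays, KRT18 minus VIM was lower in LOX-PP with both KRT18 probes, by values of -1.35 and -0.81, without overlap (exact permutation p = 0.10 each). With A_32_P151544 it was 0.074, -0.050 and -0.079 in control and -0.99, -0.49 and -0.99 in LOX-PP. The processed signal of VIM stayed between 337581 and 407772 on all arrays, although LOX-PP replicates 1 and 3 were the dimmest. The difference was smallest on LOX-PP replicate 2, whose 75th percentile (12.61) lay in the range of the control arrays. The part of array brightness in KRT18 minus VIM was not tested. KRT18 minus KRT8 differed by -0.78 with A_24_P42136 (exact permutation p = 0.10, no overlap) and by -0.23 with A_32_P151544 (exact permutation p = 0.2, overlapping).

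EPCAM (chromosome 2), an adhesion molecule of epithelial cells, was dim but well above background on every array. It read -4.12, -3.89 and -3.57 in control and -3.59, -2.84 and -3.30 in LOX-PP. The groups met at LOX-PP replicate 1 and control replicate 3, and the relative difference of 0.49 (SE 0.28, 95% interval -0.17 to 1.15) did not pass (limma adjusted p = 0.263). With the tested probes split into 10 groups by mean signal, the median relative difference ran from -0.25 to 0.27, and was 0.19 in the group of EPCAM. Its part in the EPCAM value was not tested.

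**Figure D3:**
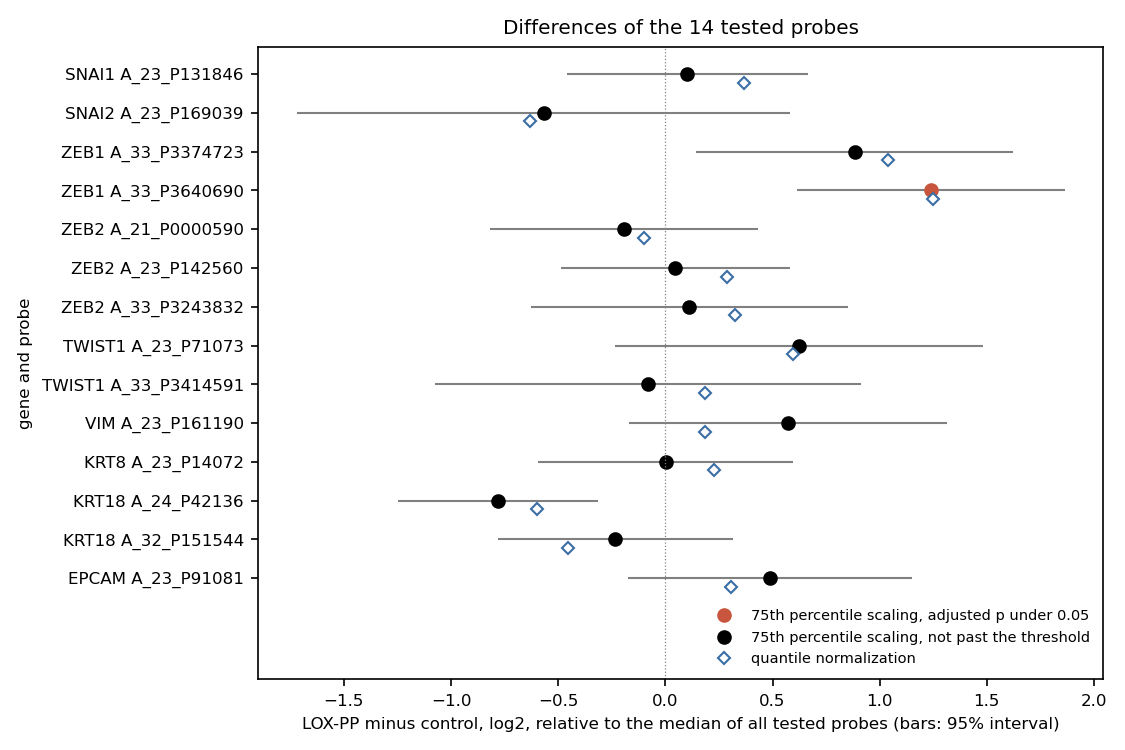
Difference between LOX-PP and control (x axis, log2, relative to the median of all tested probes) for the 14 tested probes (y axis), as points with 95% intervals under the 75th percentile scaling and open diamonds for quantile normalization. Both ZEB1 probes and KRT18 A_24_P42136 have intervals that leave out 0, and A_33_P3640690 of ZEB1, in red, is the probe with an adjusted p under 0.05.

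The other genes of both states were read from lists, with the brightest tested probe for each gene. Over all genes with 1 probe each, 7.08% were called, 3.71% higher and 3.37% lower. Of 29 mesenchymal genes, 27 were tested, 23 of them well above background on all 6 arrays. Among these 23, COL1A2, CDH2 and NES (the filament protein nestin) fell in the LOX-PP cells and none rose. With quantile normalization the same 3 fell and FN1 (fibronectin) and GSC (a homeobox factor) rose, with relative differences of 1.28 and 1.00 (adjusted p = 0.0386 and 0.04, against 0.0601 and 0.0662 with the 75th percentile), and both also rose when the test was limited to probes well above background on all 6 arrays. Another 4 tested genes were called lower, POSTN, FBN1 (fibrillin of microfibrils), LUM (a collagen-binding proteoglycan) and PRRX1 (a homeobox factor of limb and head mesenchyme), and these were well above background on more control than LOX-PP arrays, so they entered the test largely through the group where they were high. Of all 27, 8 were higher and 10 lower in LOX-PP without overlap, against 16.1% and 13.4% of all tested probes. Their median relative difference was -0.34 with the 75th percentile scaling. With this scaling the median of all tested probes varied with signal level. In groups 8 and 9 of 10 by mean signal, counted from the dimmest, it was -0.25 and -0.25. With quantile normalization it was 0.01 and 0.02 in these groups. The part of signal level in the median of the list was not tested. NES, FN1, GSC, FBN1, LUM and PRRX1 are named after their values were seen.

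CDH2, which encodes N-cadherin, read 4.04, 4.58 and 4.01 in control and 1.46, 1.43 and 1.61 in LOX-PP with probe A_33_P3214159. Control and LOX-PP arrays were far apart, with a relative difference of -2.83 (SE 0.24; limma adjusted p = 0.00228), a 7.13-fold lower signal. The other CDH2 probe, A_23_P38732, gave -2.31 (SE 0.21; adjusted p = 0.00322). Within arrays CDH2 minus VIM differed by -3.41 without overlap (exact permutation p = 0.10). The part of array brightness in this difference was not tested either. CDH1, which encodes E-cadherin, was not well above background on any array (probe A_23_P206359) and was not tested.

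POSTN, which encodes the matrix protein periostin, went from 0.12, 0.71 and -0.89 in control to -5.03, -4.71 and -4.20 in LOX-PP (relative difference -4.75, SE 0.44; adjusted p = 0.0031). It was well above background on 3 control and 2 LOX-PP arrays. COL1A2, a chain of type I collagen, read 5.22, 5.22 and 5.05 against 2.41, 2.28 and 2.05 (-3.04, SE 0.21; adjusted p = 0.0012). Its partner chain COL1A1, named after its value was seen, was higher in LOX-PP without overlap, with a relative difference of 0.53 that did not pass (adjusted p = 0.175). FBN1 was well above background on 3 control arrays and LUM and PRRX1 on 2, each with 1 LOX-PP array, and all lost their calls with quantile normalization (adjusted p = 0.0593, 0.0663 and 0.0778). The second NES probe did not pass (-1.45; adjusted p = 0.128).

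COL1A2 and LUM are also on the list of fibroblast markers, 5 of 6 of which were tested. Both were called lower in LOX-PP. COL3A1 was also lower without overlap but did not pass (relative difference -1.49, limma adjusted p = 0.0791). DCN was lower with overlap (-0.80, adjusted p = 0.541), and COL1A1 was higher. The median relative difference of the 5 was -1.49, with 4 below the median of all tested probes and 1 above. COL3A1 and DCN are named after their values were seen. The summed linear level of the 5, in units of the 75th percentile signal, was 39.6 to 45.3 in control and 11.5 to 16.0 in LOX-PP. Most of that sum was COL1A2, and the other 4 summed to 6.52 to 7.97 in control and 7.40 to 10.65 in LOX-PP. COL1A1 was the brightest of these 4, so their sum mainly follows COL1A1 and does not show the lower values of the rest. LUM was well above background on 2 control arrays and 1 LOX-PP array, and the other 4 on all 6 arrays. The part of another cell type in the fall of the mesenchymal genes was not tested. No leukocyte marker (4 tested, 0 at an unadjusted limma p under 0.05) and no endothelial marker (4 tested, 2 at that level) passed the threshold, and the methods' t-test also called none. Over all tested probes 21.3% were at that level.

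Of 30 epithelial genes 16 were tested, 11 of them well above background on all 6 arrays. Among these 11, CLDN4 rose and AP1M2 fell, and the median relative difference of the 16 was 0.00, with 8 genes on either side. CDS1, also among the 11 and named after its values were seen, was higher in LOX-PP without overlap. It did not pass (relative difference 1.08, limma adjusted p = 0.0555). With normexp, with the filter on all 6 arrays and within the first slide, CDS1 was called higher. DSP, which encodes desmoplakin of desmosomes, read -5.68, -5.76 and -5.36 in control and -3.15, -2.98 and -1.61 in LOX-PP (relative difference 2.89, SE 0.43; adjusted p = 0.0119). It was well above background on 1 control array and all 3 LOX-PP arrays, so it entered the test through the group where it was high, is not counted with the 11, and has a difference set by control signals near background. The other DSP probe, A_33_P3402565, had a relative difference of 2.32 (limma adjusted p = 0.0161, and 0.0763 with quantile normalization). On 1 control array and 2 LOX-PP arrays that probe was well above background. CLDN4, a tight junction claudin, rose from -3.25, -3.18 and -2.23 to -0.62, -0.16 and -1.25 (2.08, SE 0.39; adjusted p = 0.0257). AP1M2, an epithelial subunit of a clathrin adaptor, fell from -0.94, -0.999 and -0.75 to -4.00, -2.46 and -3.45 (-2.53, SE 0.39; adjusted p = 0.0191). Without control replicate 1 or control replicate 2, the epithelial calls over all tested genes went from 3 to 0 and the mesenchymal calls from 7 to 3, and without LOX-PP replicate 3 the mesenchymal calls went to 4. The calls of CDH2 and COL1A2 were present under every alternative (adjusted p up to 0.0276 and 0.0168). The call of CLDN4 was lost under 8 alternatives, the fit within the first slide among them (adjusted p up to 0.132). Those of AP1M2 and NES were lost under 6 each (up to 0.0985 and 0.105) and that of DSP under 4 (up to 0.0841). In the epithelial list 13 genes with a probe, CDH1 among them, were not tested.

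The partners of the SNAI, ZEB and TWIST proteins and the genes of their turnover, among them the corepressors CTBP1 and CTBP2, the demethylase KDM1A, the E-protein dimer partners TCF3 and TCF12 and the ID inhibitors of helix-loop-helix factors, made a list of 23. All 23 were tested and limma called none. Of these 6 had an unadjusted limma p under 0.05, against 21.3% of all tested probes. The methods' t-test also called none, and the median relative difference was -0.26 with the 75th percentile scaling. With this scaling all tested probes of signal groups 8 and 9 had medians of -0.25 and -0.25, against 0.01 and 0.02 with quantile normalization. The part of signal level in the median of these 23 was not tested.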

How the data were processed

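Total RNA of 3 control and 3 LOX-PP samples was labelled with Cy3 and hybridised to 1-colour Agilent 60K arrays. The deposited intensity columns were made by the authors with Feature Extraction 10.7, per the labels, and hold background-subtracted processed signals. A deposited table of log2 values, also by the authors, equalled these signals, after the 75th percentile scaling and with each probe centred on its median over the 6 arrays, to within 0.02 for all 50528 shared probes, so its scale, centring and direction are known. Its column medians were -0.12, -0.34 and 0.15 for control and -0.23, 0.41 and 0.13 for LOX-PP. Here, outlier spots were left out, spots of a probe were averaged as log2, and each array was scaled by subtracting its own 75th percentile. The test took probes that were well above background on 3 or more arrays, with limma 3.58.1 in R 4.3.3 and Benjamini-Hochberg adjustment at 0.05, and its code was tested on simulated data. The number of arrays limits the precision. RefSeq accessions named 28170 of the 50599 gene probes. Exact permutation tests used scipy 1.17.1.

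The 10 genes and all gene lists were chosen with earlier results of these data known. Named were all probes of the 10 genes, CDH1, CDH2, LOX, and in each list of epithelial, mesenchymal and partner genes up to 2 called genes with the largest rise and 2 with the largest fall. Ewing sarcoma, fibroblast, leukocyte and endothelial marker lists were also read. Other settings tried were quantile normalization, scaling by the median of the detected probes, normexp with an offset of 50, the authors' values, no filter and a filter on all 6 arrays, slide or replicate number as a block, the methods' t-test and leaving out each array. Replicate numbers were not taken as pairs in the main test, and whether they mark matched experiments is not settled.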

Additional observations from a re-analysis of the deposited data

How the results depend on the processing

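All tested probes gave 1848 calls, against 516 with no filter on dim probes, 893 with the replicate block, 569 with the methods' t-test (6429 at its unadjusted threshold) and 407 to 2067 when an array was left out. The 1 call among the 14 probes of the 10 genes became 0 with no filter, 0 with the replicate block, 2 with slide as a block (the same value as without LOX-PP replicate 1, alone on its slide) and 0 to 2 when an array was left out. By the methods' t-test 3 of these 14 were under the unadjusted threshold and 1, KRT18 A_24_P42136 in place of ZEB1, after adjustment. The epithelial calls (3) became 0 with no filter, 1 with the methods' t-test and 0 to 4 with an array left out. The 1 call of the methods' t-test was KRT19, lower in LOX-PP, and none of DSP, CLDN4 and AP1M2. KRT19, named after its values were seen, had a relative difference of -1.01 (limma adjusted p = 0.0517) and was called lower within the first slide. It was well above background on 3 control and 2 LOX-PP arrays. The mesenchymal calls (7) became 3 with no filter, 4 with the replicate block, 2 with the methods' t-test and 3 to 8 with an array left out. The epithelial, mesenchymal and partner lists together (10) gave 3 with no filter, 6 with the replicate block, 3 with the methods' t-test and 3 to 13 with an array left out. Partner genes (0) gave 1 with the filter on all 6 arrays, 1 with slide as a block and 0 to 1 with an array left out.

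The direction turned, with no call on either side, for SNAI1 (-0.017 with normexp), ZEB2 A_23_P142560 (-0.053 with normexp, -0.078 with slide as a block, -0.078 to 0.24 with an array left out), ZEB2 A_33_P3243832 (-0.22 with slide as a block, -0.22 to 0.33 with an array left out), TWIST1 A_33_P3414591 (0.19 with quantile normalization, -0.46 to 0.30 with an array left out) and KRT8 A_23_P14072 (-0.11 with normexp, -0.21 with slide as a block, -0.21 to 0.13 with an array left out). The cause was not tested. Deviations of samples with the same replicate number correlated at 0.268, -0.388 and 0.227, and those with different numbers at -0.463 to 0.389. Deviations within a group are tied to each other through the group mean, so these correlations cannot settle whether a shared number marks a shared experiment. The paper describes separate experiments with both cell types and does not state whether they were matched. With the replicate number as a block, the ZEB1 A_33_P3640690 difference stayed at 1.24 with a limma adjusted p of 0.104. Over all alternatives this p ran from 0.0191 to 0.177, and that of ZEB1 A_33_P3374723 from 0.0363 to 0.397. Dim probes (TWIST2, CDH1) limit what could be measured.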
